A study of Mus musculus with 2 samples.

Results

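The 8 genes Alas1, Alas2, Alad, Uros, Urod, Cpox, Ppox and Fech, chosen by name, encode enzymes that build heme from glycine and succinyl-CoA, and 7 of them were measured on both arrays. They were read by 9 probes, each printed at 1 spot, of the 39429 probes on the array. The samples were the Ecrg4-binding clone BaF/3 (#BEB1) and the parental Ba/F3 cells, a mouse line described as pro-B that grows in interleukin-3. BaF/3 (#BEB1) is a single clone, obtained by repeated sorting of Ba/F3 cells that had been infected with a retroviral cDNA library from the rat oligodendrocyte precursor line CG4, and the parental cells had no sorting or library named in the labels. Both lines were kept in RPMI medium with foetal calf serum and mouse interleukin-3. There was 1 Agilent 1-colour array per line, so a difference between the arrays has no replicate check and no p-value, and effects of the clone, of the culture and of the array cannot be told apart.

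The cell line of each array is not settled. The deposited table of normalised values and the scanner output give the 2 arrays to opposite lines. Over 39429 probes, the BaF/3 (#BEB1) column of the table correlated with the scanner output filed under the parental cells at r = 0.999996, and with that filed under BaF/3 (#BEB1) at r = 0.982286 (Pearson, over probes that share an array and are no replicates). Array A is BaF/3 (#BEB1) by the table and parental by the scanner output, and array B is the other. Each difference is a log2 value of array A less that of array B, which is BaF/3 (#BEB1) minus parental by the table and the opposite by the scanner output. The study cloned the LOX-1 receptor from a library of BaF/3 (#BEB1) mRNA, and states from its microarray that this mRNA was higher in BaF/3 (#BEB1). Its gene, Olr1, had a signal of 12962 on array A against 289 on array B, a difference of 5.01. By the table this is the direction that the study states.

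Heme synthesis starts and ends in the mitochondrion, with the middle steps in the cytosol. The first step, made by 5-aminolevulinate synthase, sets the rate of the pathway in most cells, and it has a housekeeping form, Alas1, which heme represses, and an erythroid form, Alas2, which erythroid transcription factors and iron control. Alad makes the pyrrole unit, Uros closes the ring, Urod and Cpox trim its side chains, Ppox oxidises it and Fech inserts the iron.

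The probes decide what the arrays could read. Positions are those of the scanner output, in mm9, and place within exons and UTRs was not looked up, since no mm9 annotation was used here. The Alas2 probe (NM_009653) lies on chromosome X from 147004993 to 147005052 on the plus strand. The Alad probe (NM_008525), of the minus strand, covers bases 62172559 to 62172618 of chromosome 4. These probes are shown for the isozyme that was not detected and for the member whose sign depended on the scaling. The capitals in the Alas2 probe mark the stop triplet in the frame that begins at its first base, and the Alad probe has a frame without a stop triplet.
Alas2: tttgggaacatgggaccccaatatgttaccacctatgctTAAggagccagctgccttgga
Alad: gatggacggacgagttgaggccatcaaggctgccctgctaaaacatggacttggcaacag

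Alas1 was read by 2 probes of the transcript NM_020559 on the minus strand of chromosome 9. Probe 1 lies from 106136284 to 106136343, and probe 2 lies 428 bases further along the transcript's strand, from 106135796 to 106135855. The last 30 bases of each are shown because probe 1 holds the hexamer AATAAA, a common polyadenylation signal, in capitals, and the last 30 bases of probe 2 do not.
Alas1 probe 1: agaattgtctttatatgtgaAATAAAttat
Alas1 probe 2: tgtatttgggtcttgctctttttatacaat

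Among the other members, the Uros probe lies on chromosome 7 from 140878069 to 140878128, the Urod probe on chromosome 4 from 116662850 to 116662909, the Fech probe on chromosome 18 from 64616928 to 64616987, and the Ppox probe on chromosome 1 from 173207452 to 173207629, all on the minus strand. The 60 bases of the Ppox probe cover 178 bases of the genome, so that it spans a gap in the alignment. The Cpox probe lies on the plus strand of chromosome 16 from 58680403 to 58680465, a span of 63 bases of the genome.

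No member was at least 2-fold apart between the arrays. Of the 7 measured members, array A had 0 and array B had 0 that were brighter by 2-fold or more, where 3.85% of the 14815 genes measured on both arrays were that much brighter on array A and 7.30% on array B. At a 1.5-fold limit the members counted 0 on array A against 3 on array B (Urod, Ppox and Fech), where all genes gave 12.5% for array A and 17.6% for array B. Uros lay just under that limit. In the order of the pathway, Alas1 and Cpox were brighter on array A, and Alad, Uros, Urod, Ppox and Fech were brighter on array B. As a median, the 7 differed by −0.58, beside −0.02 over all measured genes. With each array scaled to its median in place of its 75th percentile, every difference shifts by 0.29 towards array A, and the median of the members is −0.29 beside 0.27 over all genes. With the 75th percentile scaling, all 7 differences were larger than their own spot errors, with Alad the closest at 1.12 times its error. With median scaling Alad is at 0.06, under its error of 0.20.

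Each signal below is the background-subtracted intensity, with the error that Feature Extraction estimated for the spot, and each log2 level is this signal over the 75th percentile of its array, which was 1506 on array A against 1080 on array B. The error of a difference joins the 2 spot errors. It covers the spot and not the culture or the array, and precision is limited by there being 1 array per line.

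**Figure D1:**
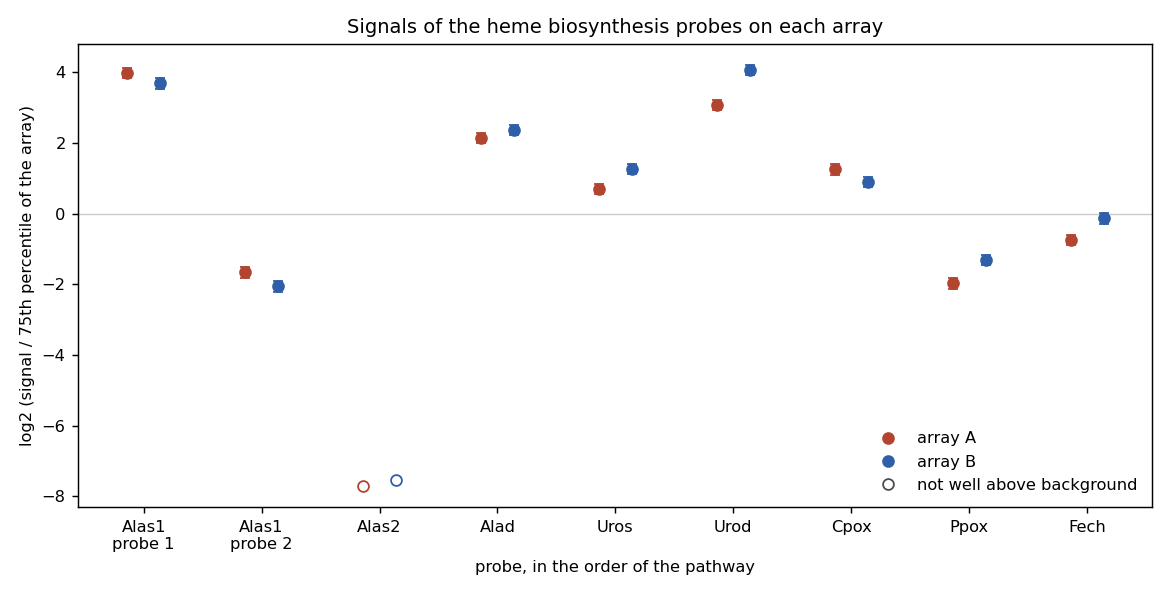
Scaled log2 level (vertical axis, signal relative to each array's 75th percentile) for the 9 probes in pathway order, array A in red left of array B in blue, 1 spot each with the spot error of Feature Extraction as bars; levels of different probes are not compared. Both Alas1 probes and Cpox are higher on array A, 5 members are higher on array B, and the open circles of Alas2 mark a probe not well above background on either array.

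Alas1, the housekeeping first enzyme, was well above background on both arrays at both of its probes. Probe 1 had a signal of 23676 ± 2368 on array A against 13853 ± 1385 on array B, which are log2 levels of 3.97 and 3.68. Probe 2 had 478 ± 48.1 on array A against 260 ± 26.4 on array B, which are −1.66 and −2.06. The differences were 0.29 ± 0.20 for probe 1 and 0.40 ± 0.21 for probe 2, a gap of 0.11 that is smaller than either error. Both probes of Alas1 were thus higher on array A. The mean over both was 0.35 ± 0.15 (1.27-fold), and 75.7% of measured genes had a lower difference.

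Alas2, the erythroid first enzyme, was on neither array well above background. The raw spot mean was 108 on array A over a local background of 83, and 101 on array B over a local background of 92. After background correction the signals were 7.21 ± 7.18 on array A against 5.90 ± 5.88 on array B, with errors as large as the signals. Both lie under the lowest signal that was well above background, 27.6 on array A against 22.9 on array B, so no fold is given. Aminolevulinate synthase was thus read through Alas1 alone on these arrays.

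Alad, whose enzyme joins 2 aminolevulinate molecules and is the zinc-dependent target of lead, had signals of 6635 ± 664 on array A against 5574 ± 557 on array B. After scaling these are 2.14 and 2.37, a difference of −0.23 ± 0.20 (1.17-fold), the smallest among the members and close to its error. It turns to 0.06 with median scaling, and its spot carried an outlier mark.

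Uros, which forms the asymmetric ring of uroporphyrinogen III, had 2423 ± 242 on array A against 2602 ± 260 on array B. The scaled levels of 0.69 and 1.27 differed by −0.58 ± 0.20, or 1.5-fold. Urod, which takes the carboxyl groups off the acetate side chains, had 12710 ± 1271 on array A against 18008 ± 1801 on array B, or 3.08 and 4.06. This was the largest difference among the 8 genes, −0.98 ± 0.20 (1.97-fold), just short of 2-fold, with 7.54% of measured genes lower. It was past 2-fold with the 75th percentile of bright probes alone, those both arrays had above background (−1.06), with quantile scaling (−1.07), with a lowess trend removed (−1.07), and just past it with normexp background correction.

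Cpox, which returns the pathway to the mitochondrion by making protoporphyrinogen IX, was the other member brighter on array A. It had 3586 ± 359 on array A against 2018 ± 202 on array B, or 1.25 and 0.90, a difference of 0.35 ± 0.20 (1.27-fold). Ppox, whose enzyme oxidises this product to protoporphyrin IX, had 384 ± 38.9 on array A against 437 ± 44 on array B, or −1.97 and −1.31. Its difference was −0.67 ± 0.21 (1.59-fold). Cpox and Ppox encode consecutive steps and lay on opposite sides of 0.

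Fech, the ferrochelatase that places iron in the ring, had 895 ± 89.7 on array A against 987 ± 98.9 on array B. These are −0.75 and −0.13, a difference of −0.62 ± 0.20 (1.54-fold), with 16.2% of measured genes lower. For Uros, Ppox and Fech the unscaled signals of the 2 arrays were within 1 spot error of each other or close to it, and most of the difference enters with the division of array A by its higher 75th percentile. Alad was brighter on array A before that division and lower after it.

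The members also differed among themselves. From Urod at the low end to Cpox and Alas1 at the high end, the members spanned 1.33 ± 0.29 on the log2 scale, a 2.52-fold change in the ratio of Cpox to Urod signal between the arrays. A scaling that multiplies a whole array leaves this span as it is, and of the settings that bend the scale with the signal, quantile scaling gave 1.44 and a lowess trend removed gave 1.38. Urod was the lowest member in each of the 11 other settings. Alas1 and Cpox were above 0 and Uros, Urod, Ppox and Fech were below 0 in all 11.

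**Figure D2:**
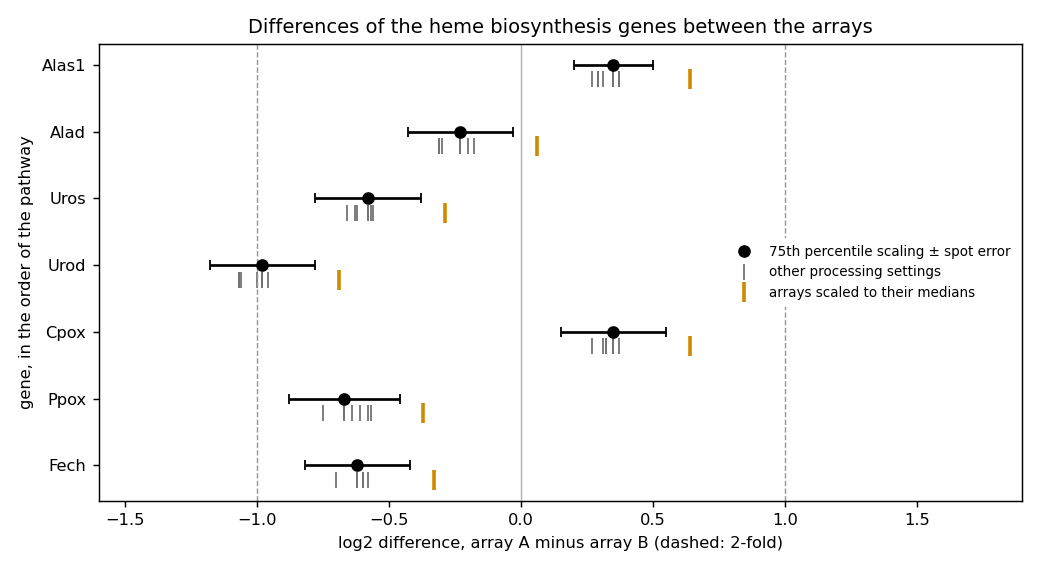
Log2 difference, array A minus array B (horizontal axis), of the 7 measured members in pathway order, with the joined spot error as bars, grey ticks for other processing settings and orange ticks for arrays scaled to their medians. With the 75th percentile scaling no point is past the dashed 2-fold lines, Urod is nearest at −0.98, and Alas1 and Cpox are both at 0.35.

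**Figure D3:**
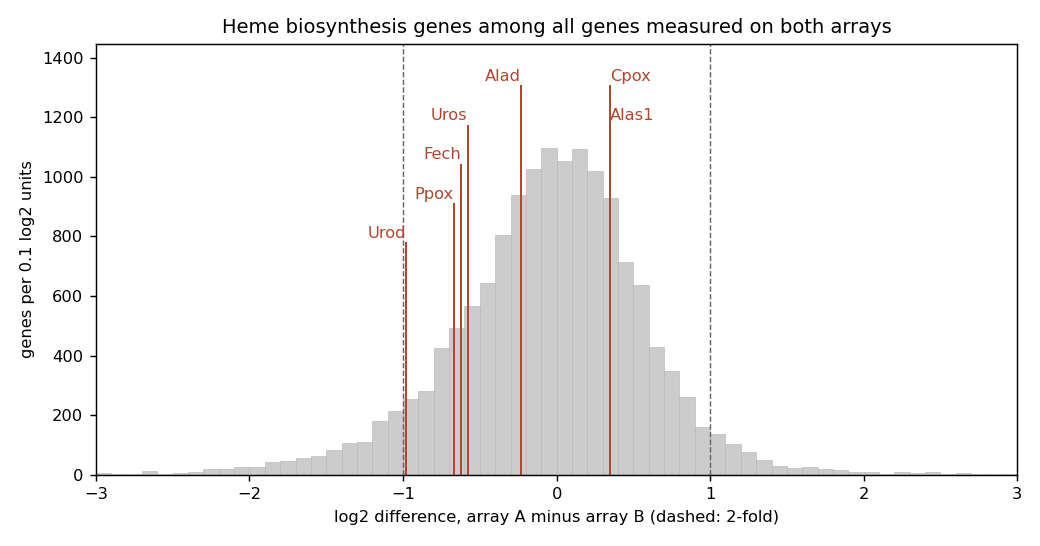
Number of genes (vertical axis) by log2 difference, array A minus array B (horizontal axis, shown from −3 to 3), over the 14815 genes measured on both arrays, with the 7 members in red and dashed lines at 2-fold. The quartiles of all genes are −0.40 and 0.34, and Alad lies between them, Uros, Ppox, Fech and Urod below them, and Alas1 and Cpox just above.

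Promoter sequences of 7 of the 8 genes, 10 start sites in all, were matched in RefSeq (GRCm38.p6). The 250 bases before the Alas2 start on the plus strand, chrX:150547167-150547416, and before 1 of the Alas1 starts on the minus strand, chr9:106247731-106247980, are shown because they belong to the first-step isozyme that was not detected and to the one that was. Capitals mark AGATAA, the letters of the motif that erythroid zinc finger factors of the Gata1 family bind, and CCNCNCCC, a motif of Klf1 and its relatives, on either strand, and overlapping matches run together.
Alas2: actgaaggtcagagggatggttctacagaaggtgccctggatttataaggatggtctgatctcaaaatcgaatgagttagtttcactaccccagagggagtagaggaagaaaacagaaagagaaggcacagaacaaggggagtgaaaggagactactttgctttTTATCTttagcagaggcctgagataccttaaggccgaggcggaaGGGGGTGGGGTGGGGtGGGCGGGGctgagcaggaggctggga
Alas1: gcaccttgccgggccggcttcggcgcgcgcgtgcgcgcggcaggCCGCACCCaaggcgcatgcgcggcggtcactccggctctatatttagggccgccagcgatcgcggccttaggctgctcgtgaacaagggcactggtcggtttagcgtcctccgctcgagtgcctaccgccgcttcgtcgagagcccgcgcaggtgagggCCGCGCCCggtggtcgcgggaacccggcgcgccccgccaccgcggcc

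Among the 10 windows, AGATAA was found in that of Alas2 and in no other, where 9.99% of 32851 promoters of the same length hold it. The window of Alas2 also held 4 matches of CCNCNCCC, some of them overlapping. An Alad window held 4 as well, and the other Alad window held 2. A Uros window held 1, and the other Uros window and those of Urod, Cpox and Ppox held 0. Over all promoters, 45.9% hold this motif. The Alas1 window shown held 2 matches of CCNCNCCC and none of AGATAA, and the other Alas1 window held 1 match of CCNCNCCC. That other window, chr9:106247955-106248204, overlaps the one shown, and its start lies within the one shown. The Alad windows overlap as well, so the 10 windows are not separate promoters. A match is a description of the letters and not a measured site.

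The factors named by these motifs were read as well. Gata1, the erythroid and megakaryocytic GATA factor, had 12796 on array A against 20455 on array B, a difference of −1.16. Klf1, the erythroid Krüppel-like factor, had 625 on array A against 2224 on array B, a difference of −2.31. The Gata1 cofactor Zfpm1 (−2.07), the repressor Gfi1b (−1.87) and Gata2 (−1.40) were also past 2-fold. Of 10 measured erythroid transcription factors, 5 were past 2-fold on array B and 0 on array A, and their median was −1.07. With median scaling Gata1 is at −0.86. Tal1 (−0.39) and Nfe2 (−0.50) were within 2-fold, and Lmo2 was at 0.61.

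Erythroid cell markers lay on both sides of 0. Of 16, 7 were measured, with a median of −0.24 and a range from −2.06 to 0.43, and their summed level was 5.1 times the 75th percentile on array A against 7.11 times on array B, most of it from the Rh blood group gene Rhd (−0.24). The receptor gene Epor (−2.06) was the only measured marker past 2-fold. Car1 was well above background on array B alone, a difference of at least 2.12-fold. The band 3 gene Slc4a1, the spectrin gene Sptb and Kel were on neither array well above background, nor was the α-globin chaperone gene Ahsp. The α-globin genes Hba-a1 (−3.20) and Hba-a2 (−3.44) were brighter on array B, and their probes cannot be taken as separate readings because the genes share nearly all of their sequence. Hbb-bt, a β-globin gene, was well above background on array A alone, a difference of at least 3.59-fold. Their part in the differences of the heme enzymes was not tested.

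The cells were checked against their label. Of 13 genes of pro-B and B cells, 3 were measured, namely Ptprc (0.75), Vpreb1 (−1.39) and Cd79b (−2.30), and 9 were on neither array well above background, with Pax5, Ebf1, Rag1 and Rag2 among them. These defining genes of the B lineage were thus not detected on either array, and the summed level of the list was 7.33 times the 75th percentile on array A against 5.67 times on array B. Most of this sum was Ptprc, which all leukocytes express, and Cd79b and Vpreb1 differed the other way. Of 9 genes of growth in interleukin-3, 8 were measured, with Cish (2.20) past 2-fold on array A and the receptor genes Csf2rb (−1.86) and Csf2rb2 past 2-fold on array B, and a summed level of 97.3 on array A against 136 on array B. Of 9 mast cell and basophil genes, 5 were on neither array well above background, namely Mcpt8, Mcpt4, Tpsb2, Tpsab1 and Ms4a2. Cpa3 (−5.44), Cma1 (−2.95) and Fcer1a (at least 45.7-fold) were brighter on array B and Hdc (1.67) on array A. The Cma1 signal on array A, 40.7, was near the lowest that was well above background there, 27.6. The summed level of the list was 2.01 on array A, mostly Hdc, against 6.57 on array B, mostly Cpa3. Of 8 macrophage genes, 4 were measured, and Cd14, Mrc1 and Marco were on neither array well above background. Fcgr1 (2.23) was past 2-fold on array A and Cd68 (−1.26) on array B, while Adgre1 (0.90) and Csf1r (−0.46) were within 2-fold. Lyz2 was well above background on array B alone, a difference of at least 1.76-fold. The summed level of these 8 was 6.5 on array A against 2.01 on array B, with Fcgr1 most of it on array A. Their part in the differences of the heme enzymes was not tested.

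Among regulators that answer to heme, Bach1, Nr1d1 and Eif2ak1 had the lowest differences. Bach1, the heme-binding repressor, had 836 on array A against 1347 on array B, a difference of −1.17, or −0.88 with median scaling. Nr1d1, a heme-binding nuclear receptor that represses Alas1 in liver, had 64.3 on array A against 112 on array B, a difference of −1.28, which is −0.98 with median scaling and −0.85 with normexp. Eif2ak1, the kinase that heme keeps inactive, was at −0.79. Of 6 measured regulators, 2 were past 2-fold on array B, 0 of them with median scaling, and 0 on array A, and their median was −0.49. Ppargc1a, an inducer of Alas1 in fasting liver, was on neither array well above background.

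Carriers around the mitochondrial steps were divided. Slc25a38, the glycine carrier, had 6461 on array A against 2975 on array B, a difference of 0.64. Abcb10, an inner membrane transporter needed for heme in red cell precursors, had 1518 on array A against 2252 on array B, a difference of −1.05, the only gene of 10 measured that was past 2-fold (−0.76 with median scaling and −0.97 with normexp). Abcb6 was at −0.74, the iron carriers Slc25a37 and Slc25a28 were at −0.05 and −0.19, and Clpx, an unfoldase that acts on ALAS, was at 0.23. The list had a median of −0.07. Of the 8 genes for succinyl-CoA and glycine supply, all measured, Slc6a9, the glycine transporter of the plasma membrane, was past 2-fold on array A (1.05, and 0.96 or less with 3 of the 11 other settings) and 0 were on array B, and the list had a median of 0.27.

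In heme export and breakdown, only Slc48a1 and Abcg2 of the genes read on either array were past 2-fold. Slc48a1, which moves heme out of endosomes and lysosomes, had 12852 on array A against 28249 on array B, a difference of −1.62. Hmox1, the inducible heme oxygenase, averaged 0.03 over 2 probes that lay at −0.31 and 0.37. Hmox2 was at 0.42, the biliverdin reductase genes Blvra and Blvrb were at −0.07 and −0.22, and the exporter gene Flvcr1 was at 0.20. Abcg2, which also exports porphyrins, was well above background on array B alone, a difference of at least 2.2-fold.

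Iron genes were mostly within 2-fold. Tfr2, a transferrin receptor of erythroid and liver cells, had 1441 on array A against 4446 on array B, a difference of −2.10. Aco1, which encodes the iron regulatory protein IRP1, was well above background on array B alone, a difference of at least 4.19-fold, while Ireb2, which encodes IRP2, was at 0.66. Tfrc, the main transferrin receptor, averaged −0.65, with its 3 probes from −1.25 to 0.15. The ferritin genes Fth1 (−0.20) and Ftl1 (−0.11) were within 2-fold, and the 12 measured genes had a median of −0.14. Among 16 iron-sulphur cluster genes, which include the suppliers of the cluster that ferrochelatase carries, Lyrm4 (1.12) and the mitochondrial chaperone gene Hspa9 (1.11) were past 2-fold on array A against 0 on array B, with a median of 0.14.

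Genes of enzymes that make or carry heme groups had medians near that of all genes. The heme a and heme c genes Cox10, Cox15 and Hccs were at 0.05, −0.18 and −0.12. Of 14 measured genes of heme-containing proteins and their partners, 0 were past 2-fold on array A against 3 on array B, namely the myeloperoxidase gene Mpo (−2.84, and −1.82 with normexp), the cyclooxygenase gene Ptgs1 (−2.17) and Por, the electron donor of cytochromes P450 (−1.35). Respiratory chain genes such as Cyc1 (0.24) and Cycs (0.23) and the catalase gene Cat (−0.55) were within 2-fold, and the median was −0.02. Median scaling shifts every difference alike, by 0.29, and moves the median of all genes to 0.27. It therefore leaves the place of each list beside all genes as it was, and is no separate check of it. The medians were then 0.23 for the carriers, 0.27 for heme export and breakdown, 0.15 for iron and 0.17 for heme a and c. Heme proteins were at 0.27 and erythroid markers at 0.05, so that each of these lists lay at or below all genes. Iron-sulphur cluster assembly (0.43) and succinyl-CoA and glycine supply (0.56) lay above all genes.

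**Figure D4:**
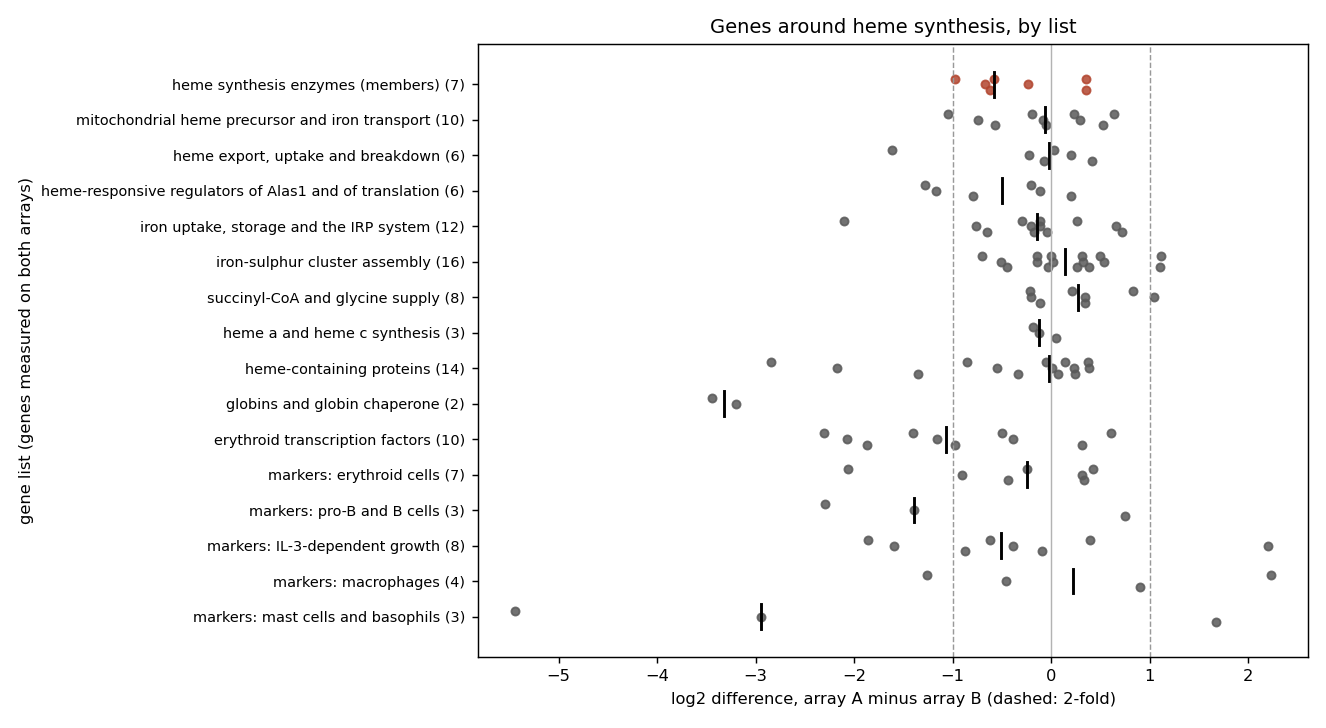
Log2 difference, array A minus array B (horizontal axis), of each gene measured on both arrays, by list (rows, with the number of genes measured), with black bars at the medians and dashed lines at 2-fold. The heme synthesis enzymes in red have a median of −0.58. The other medians run from −3.32 (globins, 2 measured genes) to 0.27 (succinyl-CoA and glycine supply). The nearest are those of interleukin-3-dependent growth (−0.50) and of the heme-responsive regulators (−0.49).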

How the data were processed

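The authors hybridised cyanine 3-labelled cRNA of each cell line to an Agilent whole mouse genome array and deposited the scanner output, with a background-subtracted intensity per spot from Agilent Feature Extraction 9.5.1.1. They also deposited log2 values, made by raising signals to a floor of 1.0 and dividing by the array's 75th percentile.

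Here the 43020 non-control spots were floored, scaled and averaged per probe in that way, and no spot lay under the floor (0 on either array). A gene is the mean of its probes that both arrays had well above background. A GRCm38.p6 RefSeq table named 26055 of 39429 probes through their accession, 3195 through the symbol and 930 through an older one, and all member probes bear the same name in the scanner output. For a gene that 1 array alone had above background, a lower bound of the fold was taken from the dimmest such signal of the other array. Members and lists were chosen with earlier results of these data known. From 15 other lists, up to 5 genes at least 2-fold apart were to be named, with a few fixed genes, and some items are not reported here; others named were picked after their values were seen. The SD over repeated spots, from 211 of 399 probes printed at 10 spots, had a median of 0.06 on array A and 0.05 on array B. No test was possible with 1 array per line. The scripts were tested on simulated data. Alternatives were 4 scalings, normexp with an offset of 50, 2 filters, outlier marks, 2 probe rules, the authors' table and other fold limits. Python 3.11.15, numpy 2.4.6, pandas 2.3.3, statsmodels 0.14.6, matplotlib 3.10.9, R 4.3.3 and limma 3.58.1 were used.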

Additional observations from a re-analysis of the deposited data

How the results depend on the processing

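With 1 array per line no replicate could be left out. Under every alternative 0 members were past 2-fold on array A. On array B it was 1, Urod, with the percentile of bright probes alone (those both arrays had above background), quantile scaling, a lowess trend removed and normexp, and 3 at a 1.5-fold limit. The members' median of −0.58 was −0.29 with median scaling, −0.66 with that of bright probes and −0.40 with no filter on dim probes, which adds Alas2. Array A minus array B is the same whichever line each array holds. Taken as BaF/3 (#BEB1) minus parental, each member's difference has the opposite sign by the scanner output to that by the authors' table. Alad was above 0 in 1 of 10 alternatives and could not be read with outlier spots left out. Over all genes the counts past 2-fold, 570 for array A and 1082 for array B, were 1313 and 587 with median scaling, 1133 and 1876 with a looser filter, 1491 and 2777 with none, 385 and 707 with normexp, 1846 and 2603 at 1.5-fold and 156 and 333 at 3-fold, and the share on array A was 34.5%, 69.1% with median scaling and 26.2% with bright probes. The causes were not tested. The median signal (32.6 on array A, 28.6 on array B) is near the lowest well above background, where median scaling rests.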
